A study of Rattus norvegicus with 36 samples.

Results

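Cacna1e encodes the pore-forming alpha-1E subunit of the R-type voltage-gated calcium channel (Cav2.3). It is 1 of the 31546 Ensembl genes listed in the deposited counts of the rat nucleus accumbens (identifier ENSRNOG00000002863), and 1 of the 15641 that had enough counts to be tested. The gene was chosen by its measured values, since it and 26 other genes were listed by the study for Coc–Coc vs. Sal–Coc on these same libraries. Its levels are therefore a description, with no test. Male Sprague-Dawley rats aged 8 weeks all received 3 intraperitoneal injections per day for 5 days, and were killed 24 h after the final one for dissection of the nucleus accumbens. Sal–Sal rats received 15 injections of saline, Sal–Coc rats received saline and then 3 injections of cocaine (20 mg/kg each), and Coc–Coc rats received 15 injections of cocaine at the same dose. The labels give 13 saline injections for Sal–Coc, whereas the schedule leaves 12. Each group had 3 pools of 2 rats according to the methods (the labels name a single rat), so each value stands for a mixture of animals, and the phenotype label of Coc–Coc (vulnerable) differs from its description (tolerant).

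R-type channels open on strong depolarization, and they carry the calcium current that remains when the blockers of L-, N- and P/Q-type channels are applied. They are known from dendrites and spines, where they contribute to calcium entry during spikes and synaptic input, and from presynaptic terminals, where they add to transmitter release and plasticity. In the striatum they are present in neurons, including the projection neurons that receive dopamine and glutamate inputs.

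The start of the gene is shown so that it can be compared with those of other channel genes of its family, whose groups had another order. The window of 300 bases from RefSeq (build GRCr8, chr13:69444761-69445060, minus strand) runs from 250 bases before the annotated start to 50 after it, and the capitals mark the start codon of the protein. The start codon begins at base 8 counted from the annotated start. Whether transcription begins at that start was not tested, so the window need not hold the promoter.
Cacna1e: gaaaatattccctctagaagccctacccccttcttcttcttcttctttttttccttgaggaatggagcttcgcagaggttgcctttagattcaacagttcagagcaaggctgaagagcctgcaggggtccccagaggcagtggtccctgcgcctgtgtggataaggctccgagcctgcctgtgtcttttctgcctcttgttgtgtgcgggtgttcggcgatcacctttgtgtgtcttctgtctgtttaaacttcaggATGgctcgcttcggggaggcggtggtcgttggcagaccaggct
In the 250 bases before the start, 51.2% were G or C, which equals the median of all 33469 windows of the RefSeq table, and 6 CpG dinucleotides were present against a median of 5. None of 5 short motifs searched on both strands was found in these letters. They were the cAMP response element TGACGTCA (in 1.59% of all windows), its shorter form TGACG (18.2%), the AP-1 motif TGANTCA (6.34%), the GC box GGGCGG (30.5%) and the TATA box TATAAA (12.9%), of which TGACG is part of TGACGTCA.

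Cacna1e was well covered in each pool. The Sal–Sal pools had 7829, 10360 and 11354 reads counted on the gene, and 231, 256 and 270.3 CPM (counts divided by library totals adjusted with TMM factors). The Sal–Coc pools had 8234, 6261 and 8098 reads, and 193, 167 and 224 CPM. The Coc–Coc pools had 10263, 15441 and 13545 reads, and 275, 358 and 327 CPM. Sal–Coc pool 2 was the lowest of all and Coc–Coc pool 2 the highest, and the ranges of the 3 groups were separate.

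The order of the groups was thus Sal–Coc, Sal–Sal and Coc–Coc. Expression was 195 ± 28.8 CPM in Sal–Coc (SD, n = 3 pools), 252 ± 19.9 CPM in Sal–Sal and 320 ± 41.6 CPM in Coc–Coc. The neighbours in this order were separated by little, with 6.76 CPM between the highest Sal–Coc pool and the lowest Sal–Sal pool, and 4.98 CPM between the highest Sal–Sal pool and the lowest Coc–Coc pool. Both gaps were smaller than the SD of any of the groups. The gap between the highest Sal–Coc pool and the lowest Coc–Coc pool was 51.0 CPM, which was larger than the SD of either group. With library totals alone and no TMM factor, which was tried after seeing the data, Sal–Coc (169 to 223 CPM) and Sal–Sal (211 to 268 CPM) overlapped, while Coc–Coc still lay above both. In bulk tissue, fewer cells of a type and less RNA per cell cannot be told apart.

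**Figure D1:**
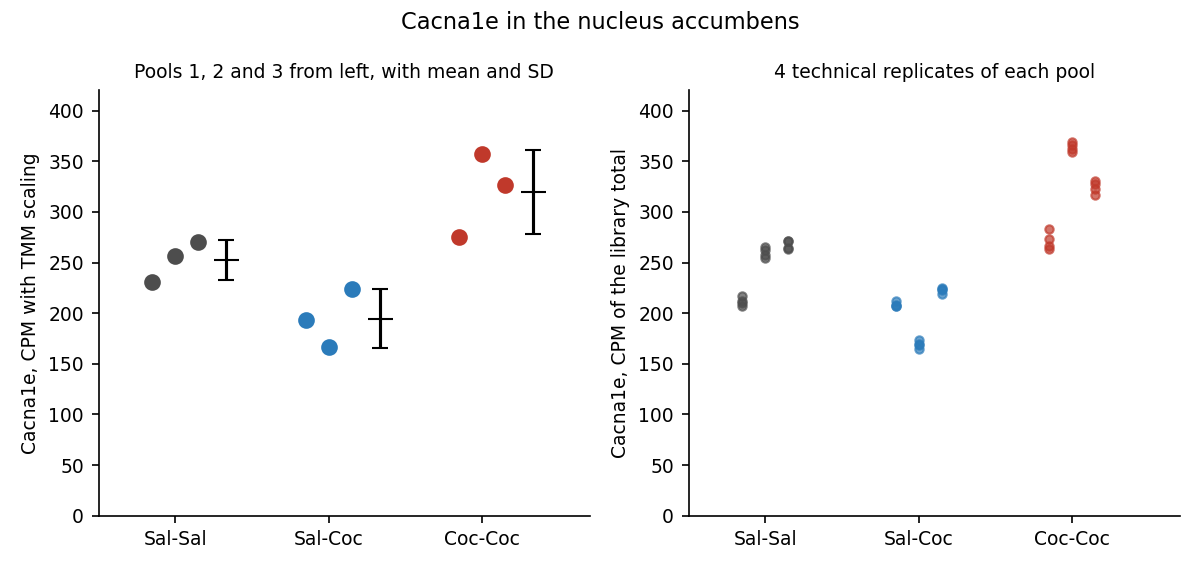
Cacna1e by group. The left panel plots CPM with TMM scaling for the 3 pools of each group, with the group mean and SD (black), and the right panel plots CPM of the library total for the 4 technical replicates of each pool. The Coc–Coc pools lay at 275 CPM and above and the Sal–Coc pools at 224 CPM and below, and technical replicates of 1 pool lay close together.

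Counts of technical replicates were close to each other. Each of the 4 technical replicates of a pool had between 1512 and 3883 reads on Cacna1e, and their chi-square (3 degrees of freedom) was between 0.695 and 7.68 per pool, with 0 of 9 pools at a p-value under 0.05 (the lowest p of this chi-square test was 0.0530). The counting error of a pool was between 0.805% and 1.26%, while the coefficient of variation between pools was 7.87% for Sal–Sal, 14.8% for Sal–Coc and 13.0% for Coc–Coc. The SD within groups was 0.18 on the log2 CPM scale, and 75.8% of the 500 genes nearest in mean level had a smaller one (median 0.13). Cacna1e thus varied more between pools of the same group than most genes of its level.

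Cacna1e had a log2 fold change (LFC) of -0.38 (SE, standard error, 0.13) for Sal–Coc vs. Sal–Sal, which is 0.771-fold. The value of Coc–Coc vs. Sal–Sal was 0.34 (SE 0.13), or 1.27-fold, and for Coc–Coc vs. Sal–Coc 0.72 (SE 0.13), or 1.64-fold. Cacna1e was therefore on opposite sides of the saline level in the cocaine groups. The first comparisons share the Sal–Sal pools, and the third shares its pools with both, so the 3 values are not independent.

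Set among all genes tested, Cacna1e lay near the edge of the distribution only in Coc–Coc vs. Sal–Coc. There 3.63% of the genes tested had an LFC at least as large in either direction and 1.502% were at least as high, and Cacna1e was above the 95th percentile of 0.41. In Sal–Coc vs. Sal–Sal, 10.5% of the genes tested were at least as low as Cacna1e, and for Coc–Coc vs. Sal–Sal 16.1% were at least as high. The median of all genes tested was -0.01 in each of the 3 comparisons. These shares describe a gene that was selected for its difference in Coc–Coc vs. Sal–Coc, and they support nothing.

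**Figure D2:**
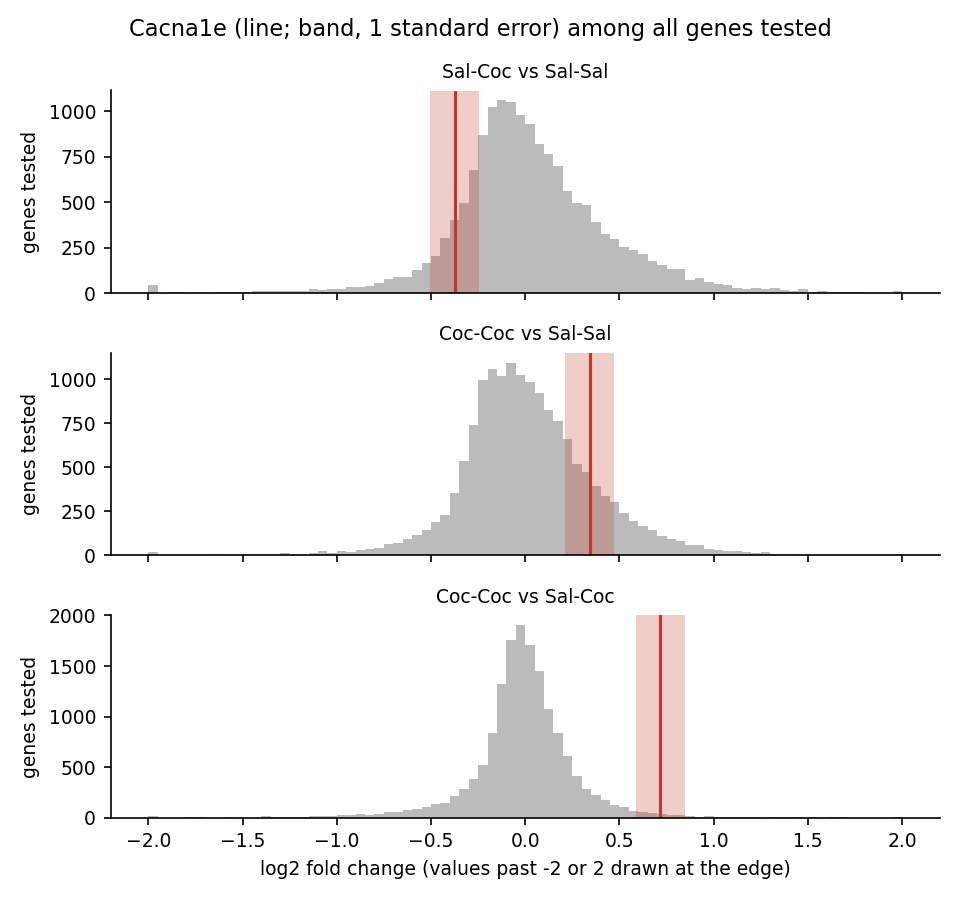
Log2 fold changes of the 15641 genes tested in each comparison (grey bars, number of genes per bin), with Cacna1e as a red line and 1 SE on each side as a band. Cacna1e lies at -0.38, 0.34 and 0.72 from top to bottom, and only in the bottom panel is it past the 95th percentile (0.41).

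Separate ranges of the pools were found for 36.1% of the genes tested in Sal–Coc vs. Sal–Sal, 36.7% for Coc–Coc vs. Sal–Sal and a lower 17.2% for Coc–Coc vs. Sal–Coc. Cacna1e thus had its separate ranges in common with many genes, and nothing is read from them. DEGs at an adjusted p-value below 0.05 (quasi-likelihood test of edgeR, Benjamini-Hochberg adjustment) made up 10.6% (upregulated) and 5.86% (downregulated) of the genes tested for Sal–Coc vs. Sal–Sal, and 7.13% and 3.75% for Coc–Coc vs. Sal–Sal. For Coc–Coc vs. Sal–Coc their share was 0%, while 1453 genes had p under 0.05 before adjustment and DESeq2 called 155. Totals per pool ranged from 36372166 to 42449841 counts, TMM factors from 0.915 to 1.08, and the mean correlation of a pool with the others of its group from 0.984 to 0.991.

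The 3 other pore-forming subunits that could be matched had higher means in both cocaine groups than in Sal–Sal, and 5 of these 6 differences passed the test, whereas the mean of Cacna1e was lower in Sal–Coc. Of 26 voltage-gated calcium channel genes considered, 5 could be matched to an identifier, namely Cacna1e, Cacna1a (P/Q-type, the main channel of transmitter release at many central synapses), Cacna1b (N-type, also presynaptic), Cacna1d (an L-type channel that opens at low voltages) and Cacng8 (a gamma subunit that serves as an auxiliary protein of AMPA receptors). Sal–Sal is called saline in the comparisons that follow. A gene could be matched only where the study had listed it for 1 of the comparisons on these libraries, so the counts that follow are not independent evidence of a direction.

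Cacna1a was at 172, 181 and 205 CPM in the Sal–Sal pools, 257, 261 and 328 CPM in the Sal–Coc pools and 247, 263 and 259.7 CPM in the Coc–Coc pools. All pools of both cocaine groups lay above all Sal–Sal pools, whereas the cocaine groups overlapped. Pools separate from Sal–Sal were found for 36.1% (Sal–Coc) and 36.7% (Coc–Coc) of all genes tested, so nothing is read from this. It rose in Sal–Coc relative to saline (LFC 0.60, SE 0.11, edgeR adjusted p = 0.00855) and in Coc–Coc relative to saline (0.46, SE 0.11, adjusted p = 0.0303). The latter call was lost without any 1 of Sal–Sal pools 1 and 2 and the 3 Coc–Coc pools (adjusted p from 0.0558 to 0.104).

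Cacna1b was at 141, 148 and 184 CPM in Sal–Sal, 229, 201 and 233 CPM in Sal–Coc and 194, 213 and 210.1 CPM in Coc–Coc. Again the pools of both cocaine groups lay above those of Sal–Sal, and again nothing is read from this. It rose in Sal–Coc relative to saline (LFC 0.49, SE 0.11, edgeR adjusted p = 0.0176), a call that was lost without Sal–Sal pool 1 or 2 or Sal–Coc pool 3 (adjusted p from 0.0573 to 0.0689). In Coc–Coc relative to saline its LFC was 0.38 (SE 0.11, edgeR adjusted p = 0.0515). That difference was called by DESeq2 (adjusted p = 0.0109) and limma-voom (adjusted p = 0.0474). In edgeR it was called with a filter of at least 1 CPM in 3 pools (adjusted p = 0.0464). The same held without Sal–Sal pool 3 (0.0162) or Sal–Coc pool 1 (0.0494), and it was not called in any other setting tried.

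Cacna1d was at 88.8, 119 and 127 CPM in Sal–Sal, 171, 162 and 189.8 CPM in Sal–Coc and 181, 181 and 183 CPM in Coc–Coc. It rose in both comparisons with Sal–Sal, by 0.64 on the log2 scale in Sal–Coc (SE 0.12, edgeR adjusted p = 0.0103) and by 0.70 in Coc–Coc (SE 0.12, adjusted p = 0.0171). The pools of Cacng8 lay between 99.5 and 118 CPM in Sal–Sal, 143 and 159 CPM in Sal–Coc and 144 and 149 CPM in Coc–Coc. It rose as well, by 0.48 (edgeR adjusted p = 0.00609) and 0.42 (adjusted p = 0.0188) on the log2 scale.

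The next counts were favoured by the selection, as these 4 genes were matched only because the study had listed them on these libraries. The shares of all genes tested are therefore not a like background. In Sal–Coc relative to saline 4 of 4 were upregulated (10.6% of all genes tested), with a median LFC of 0.54 against -0.01 over all genes tested. In Coc–Coc relative to saline 3 of 4 were upregulated (7.13% of all genes tested), with a median of 0.44 against -0.01. Without Coc–Coc pool 2 or Coc–Coc pool 3 the latter count was 0 of 4. In Coc–Coc vs. Sal–Coc 0 of 4 were past the threshold of edgeR's test, limma-voom and DESeq2, with 0 of 4 also at an unadjusted p-value under 0.05. Their LFCs were between -0.14 and 0.06, where Cacna1e was at 0.72. The study had listed Cacna1e for this comparison and these 4 genes only for others, so the selection favoured this contrast and nothing is read from it.

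**Figure D3:**
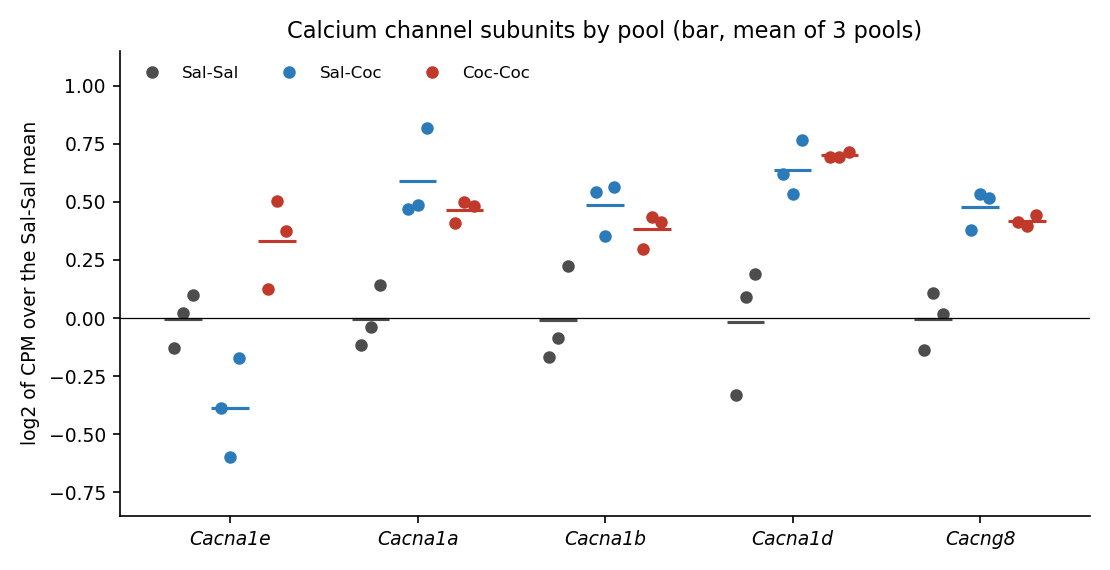
Calcium channel genes by pool, as log2 of the CPM over the Sal–Sal mean of the same gene (points, 3 pools per group; bars, their mean). Cacna1e is the gene with its Sal–Coc pools (blue) below the Sal–Sal pools (grey), and in the other 4 genes the pools of both cocaine groups lie above the Sal–Sal pools. Of all genes tested, 36.1% (Sal–Coc) and 36.7% (Coc–Coc) had pools separate from those of Sal–Sal in either direction, so nothing is read from this.

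The ratio of reads on Cacna1e to reads on another channel gene in the same pool does not depend on the scaling of the libraries. It compares pools, and not the levels of the genes, which differ in length. Reads on Cacna1e per read on Cacna1a were 1.35, 1.41 and 1.32 for Sal–Sal, 0.750, 0.639 and 0.684 for Sal–Coc and 1.11, 1.36 and 1.26 for Coc–Coc. The ratio was lowest in Sal–Coc, and the Coc–Coc pools overlapped with those of Sal–Sal.

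The ratio to Cacna1b was 1.61 ± 0.131 in Sal–Sal (SD, n = 3 pools), 0.878 ± 0.0732 for Sal–Coc and 1.55 ± 0.130 for Coc–Coc, again with Sal–Sal and Coc–Coc overlapping. The ratio to Cacna1d was 2.29 ± 0.268 in Sal–Sal, 1.11 ± 0.0763 for Sal–Coc and 1.76 ± 0.229 for Coc–Coc. Here all Coc–Coc pools (1.52 to 1.98) lay below all Sal–Sal pools (2.12 to 2.601) and above all Sal–Coc pools (1.03 to 1.18). Relative to these channel genes, Cacna1e was thus low in Sal–Coc, and its mean ratio in Coc–Coc was not above that of Sal–Sal for any of the 3 genes. The excess of Cacna1e in Coc–Coc over Sal–Sal was seen in CPM and not in these mean ratios, and the CPM of the other channel genes were higher there too. In Sal–Coc these genes were also above Sal–Sal (LFC 0.60, 0.49 and 0.64), so the low ratios hold their rise as well as the lower Cacna1e (-0.38). They were matched only because the study had listed them on these pools, so the ratios are not independent evidence on Cacna1e.

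The 250 bases before the annotated starts of the 3 other pore-forming genes are shown to compare them with the window of Cacna1e (RefSeq, GRCr8, minus strand for each). They lie at chr19:40650469-40650718 for Cacna1a, chr3:27944286-27944535 for Cacna1b and chr16:5527550-5527799 for Cacna1d, and the capitals mark the GC box GGGCGG or the short cAMP response element TGACG, read on either strand.
Cacna1a: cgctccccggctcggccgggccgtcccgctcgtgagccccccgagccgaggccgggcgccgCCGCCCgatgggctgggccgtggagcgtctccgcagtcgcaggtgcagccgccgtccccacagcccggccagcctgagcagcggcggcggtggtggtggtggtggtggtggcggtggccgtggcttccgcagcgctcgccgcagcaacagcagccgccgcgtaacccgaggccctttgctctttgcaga
Cacna1b: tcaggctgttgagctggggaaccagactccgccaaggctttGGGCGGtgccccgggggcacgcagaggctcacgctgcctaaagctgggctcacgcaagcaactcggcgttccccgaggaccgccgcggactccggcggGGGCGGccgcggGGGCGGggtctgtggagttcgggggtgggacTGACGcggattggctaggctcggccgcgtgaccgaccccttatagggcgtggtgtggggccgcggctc
Cacna1d: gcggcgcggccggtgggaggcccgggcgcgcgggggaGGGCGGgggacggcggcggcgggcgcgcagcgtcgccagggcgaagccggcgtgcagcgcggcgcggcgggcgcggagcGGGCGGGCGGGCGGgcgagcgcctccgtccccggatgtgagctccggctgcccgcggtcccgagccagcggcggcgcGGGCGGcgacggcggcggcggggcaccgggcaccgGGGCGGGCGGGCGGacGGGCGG
These windows were richer in G and C than that of Cacna1e, with 76.8% for Cacna1a, 72.0% for Cacna1b and 88.8% for Cacna1d. They held 34, 28 and 56 CpG dinucleotides and 1, 3 and 9 GC boxes, where overlapping boxes count separately, and Cacna1b held 1 TGACG. A match describes the letters, and whether any of them bears on expression was not tested. The start codon of Cacna1e begins at base 8 from its annotated start, and where transcription begins was not tested for any of these genes. The windows may therefore hold unlike regions.

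Genes that work beside calcium channels were described from lists of 100 symbols, of which 11 could be matched, again only genes that the study had listed on these libraries. In Sal–Coc relative to saline, 5 of 11 rose and 3 fell (edgeR's quasi-likelihood test), where 10.6% of all genes tested rose and 5.86% fell. Their median LFC was 0.21 against -0.01 over all genes, and the 8 calls became 5 without Sal–Sal pool 1 or Sal–Coc pool 2. In Coc–Coc relative to saline, 6 rose and 0 fell (median 0.45 against -0.01), where 7.13% of all genes tested rose and 3.75% fell. These 6 became 0 without Coc–Coc pool 3, a fit in which 0 of all genes tested were called, 1 without Coc–Coc pool 2 or Sal–Sal pool 1, and 3 without Coc–Coc pool 1 or Sal–Coc pool 2. In Coc–Coc vs. Sal–Coc 0 of 11 passed edgeR's test, 5 of 11 had an unadjusted p-value under 0.05 (1453 of the 15641 genes tested did), and DESeq2 called 3 (155 of all genes).

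Among the ionotropic glutamate receptors, Grin2b (the GluN2B subunit of the NMDA receptor) had a Sal–Coc level below Sal–Sal, as Cacna1e did. It was at 61.9, 54.0 and 70.3 CPM in Sal–Sal, 34.2, 35.8 and 45.8 CPM in Sal–Coc and 57.9, 73.2 and 56.2 CPM in Coc–Coc. It fell in Sal–Coc relative to saline (LFC -0.69, SE 0.15, edgeR adjusted p = 0.0149), and in Coc–Coc relative to saline its LFC was 0.01 (adjusted p = 0.975). Its Coc–Coc pools overlapped with Sal–Sal, whereas those of Cacna1e lay above Sal–Sal by only 4.98 CPM. Grin2b is also 1 of the 26 genes listed with Cacna1e for Coc–Coc vs. Sal–Coc, where its LFC was 0.69 and the adjusted p of 0.287 in edgeR's test was not under 0.05.

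Grin1, the obligatory GluN1 subunit of the same receptor, was at 479, 517 and 529.9 CPM in Sal–Sal, 637, 734 and 733 CPM in Sal–Coc and 657, 606 and 676 CPM in Coc–Coc. It rose in both comparisons with Sal–Sal (LFC 0.46 with adjusted p = 0.0111, and 0.35 with adjusted p = 0.0407, edgeR's test). Grik5, the GluK5 subunit of kainate receptors, rose in both as well, by 0.67 and 0.46 on the log2 scale. Gria1, the GluA1 subunit of AMPA receptors, rose in Coc–Coc relative to saline (0.45, edgeR adjusted p = 0.0315), and its LFC in Sal–Coc relative to saline was 0.10 (adjusted p = 0.537).

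Reads on Grin2b per read on Grin1 were 0.122 ± 0.0154 in Sal–Sal (SD, n = 3 pools), 0.0550 ± 0.00693 for Sal–Coc and 0.0973 ± 0.0204 for Coc–Coc. The ratio was lowest in all Sal–Coc pools, as were the ratios of Cacna1e to the other channel genes. Here too the divisor, Grin1, was higher in Sal–Coc than in Sal–Sal. Grm5, the metabotropic glutamate receptor that couples to calcium release from stores, was at 238, 239 and 248 CPM in Sal–Sal, 140.2, 162 and 192 CPM in Sal–Coc and 211, 269 and 229 CPM in Coc–Coc. It fell in Sal–Coc relative to saline (LFC -0.56, SE 0.12, edgeR adjusted p = 0.0168), and in Coc–Coc relative to saline its LFC was -0.04 (adjusted p = 0.875).

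Of the genes of calcium stores and extrusion, Ryr1 (a calcium release channel of the endoplasmic reticulum) rose in Sal–Coc relative to saline (LFC 0.99, edgeR adjusted p = 0.00403) and in Coc–Coc relative to saline (0.90, adjusted p = 0.0161). Ryr3, another such channel, rose in Coc–Coc relative to saline (0.55, edgeR adjusted p = 0.0280), with 0.19 in Sal–Coc relative to saline (adjusted p = 0.305). Slc8a1, a sodium-calcium exchanger, fell in Sal–Coc relative to saline (-0.73, edgeR adjusted p = 0.0273), with -0.37 in Coc–Coc relative to saline (adjusted p = 0.210). The presynaptic genes Unc13a, which primes synaptic vesicles, and Rimbp2, which ties calcium channels to the active zone, rose in Sal–Coc relative to saline (0.65 and 0.63), and Unc13a also in Coc–Coc relative to saline (0.48). Pvalb, a calcium buffer, is described with the markers.

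**Figure D4:**
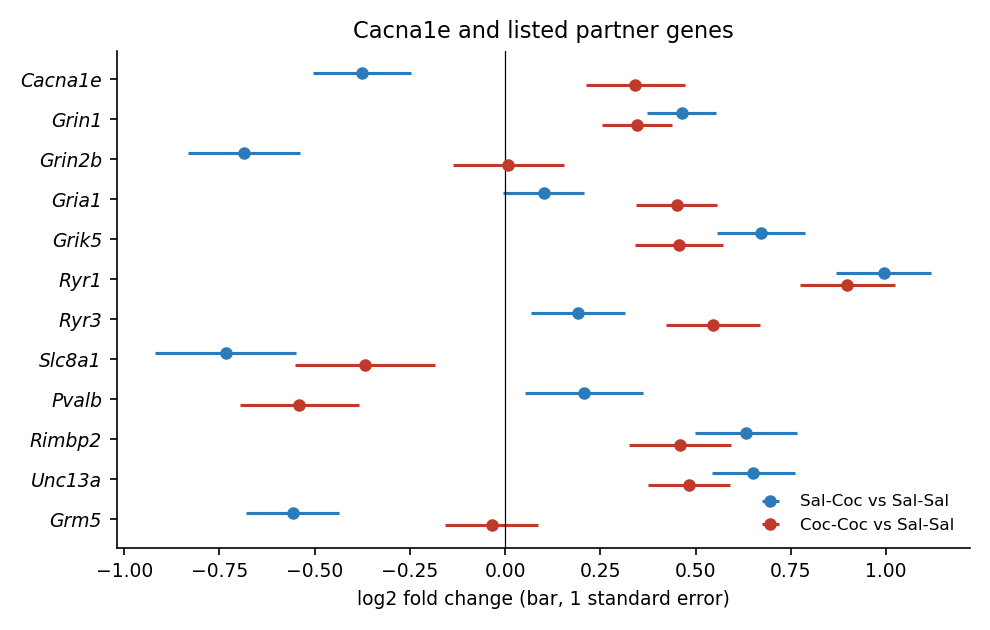
Log2 fold changes of Cacna1e and the 11 matched partner genes in Sal–Coc relative to saline (blue) and Coc–Coc relative to saline (red), with 1 SE. Cacna1e, Grin2b, Slc8a1 and Grm5 have Sal–Coc values below 0, and Cacna1e is the one of these with a Coc–Coc value of 0.34 rather than one near or below 0.

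Markers of cell types could be matched for 4 of 61 symbols, so the makeup of the pools and the label of the tissue could not be checked (0 of 12 markers of striatal projection neurons were matched). A marker, too, could be matched only where the study had listed it on these libraries. The selection thus favoured markers that differed between groups, and no shift of a cell type is read from them. Slc1a2, a glutamate transporter of astrocytes and the 1 of 6 astrocyte markers that was matched, was at 529.8, 439 and 394 CPM in Sal–Sal, 292, 202 and 260.4 CPM in Sal–Coc and 521, 427 and 369.96 CPM in Coc–Coc. It fell in Sal–Coc relative to saline (LFC -0.85, SE 0.17, edgeR adjusted p = 0.0117), the comparison in which Cacna1e was lower, and its LFC in Coc–Coc relative to saline was -0.05. Its part in the levels of Cacna1e was not tested. Flt1, 1 of 3 endothelial markers, rose in Sal–Coc relative to saline (0.54, edgeR adjusted p = 0.0433).

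Hba-a2, 1 of 3 markers of red blood cells, was at 0.297 to 0.974 CPM in Sal–Sal, 0.539 to 1.25 CPM in Sal–Coc and 1.53 to 3.55 CPM in Coc–Coc. It rose in Coc–Coc relative to saline (LFC 2.11, edgeR adjusted p = 0.0276), the comparison in which Cacna1e was higher, and its part was not tested either. As a hemoglobin gene with near-identical copies, its count is uncertain. Pvalb, 1 of 8 markers of striatal interneurons, was at 7.91 to 11.95 CPM in Sal–Sal, 10.2 to 12.1 CPM in Sal–Coc and 6.23 to 7.24 CPM in Coc–Coc, with an LFC of -0.54 in Coc–Coc relative to saline (edgeR adjusted p = 0.0543).

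The genes most like Cacna1e were sought by Pearson's r of log2 (CPM + 0.1) over the 9 pools among 13634 genes with a mean of at least 1 CPM. As the 9 pools share groups and libraries, r is a description and has no p-value. It was at least 0.9 for 29 genes and -0.9 or less for 6. The 8 most alike had r between 0.941 and 0.963 and after subtraction of group means between 0.750 and 0.8998, which the choice by r over the same pools favours. Their LFCs were between -0.44 and -0.11 for Sal–Coc relative to saline, 0.09 and 0.26 for Coc–Coc relative to saline, and 0.20 and 0.70 for Coc–Coc vs. Sal–Coc. By sign, all 8 thus lay on both sides of the saline level, as Cacna1e did, which the choice by r also favours. In edgeR's test only ENSRNOG00000006338 was called in Sal–Coc relative to saline (adjusted p = 0.0407). In Coc–Coc relative to saline no gene of the 8 was called (lowest adjusted p = 0.194). None of the 8 could be matched to a symbol. The most alike, ENSRNOG00000006338 (r = 0.963), was at 56.0, 59.6 and 62.8 CPM in Sal–Sal, 51.0, 44.0 and 51.2 CPM in Sal–Coc and 64.1, 69.9 and 64.0 CPM in Coc–Coc. Like Cacna1e it had Sal–Coc pool 2 as its lowest pool and Coc–Coc pool 2 as its highest, which the same choice favours. Its LFC in Coc–Coc vs. Sal–Coc was 0.44. The next was ENSRNOG00000011241 (r = 0.962), with 0.51 in that comparison.

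The 4 genes with the lowest r lay between -0.952 and -0.913, and none was matched. The lowest was ENSRNOG00000046763 (r = -0.952), at 2.83 to 3.16 CPM in Sal–Sal, 3.66 to 4.58 CPM in Sal–Coc and 2.64 to 3.19 CPM in Coc–Coc, followed by ENSRNOG00000019920 (r = -0.946). Over the same pools, r with Cacna1e was -0.05 for Cacna1a, -0.02 for Cacna1b, 0.14 for Cacna1d and -0.10 for Cacng8. It was higher for Grin2b (0.84), Grm5 (0.82) and Gria1 (0.75), and lower for Pvalb (-0.75). Grin2b and Pvalb were also listed with Cacna1e for Coc–Coc vs. Sal–Coc, so the selection favoured a strong r for them.

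**Figure D5:**
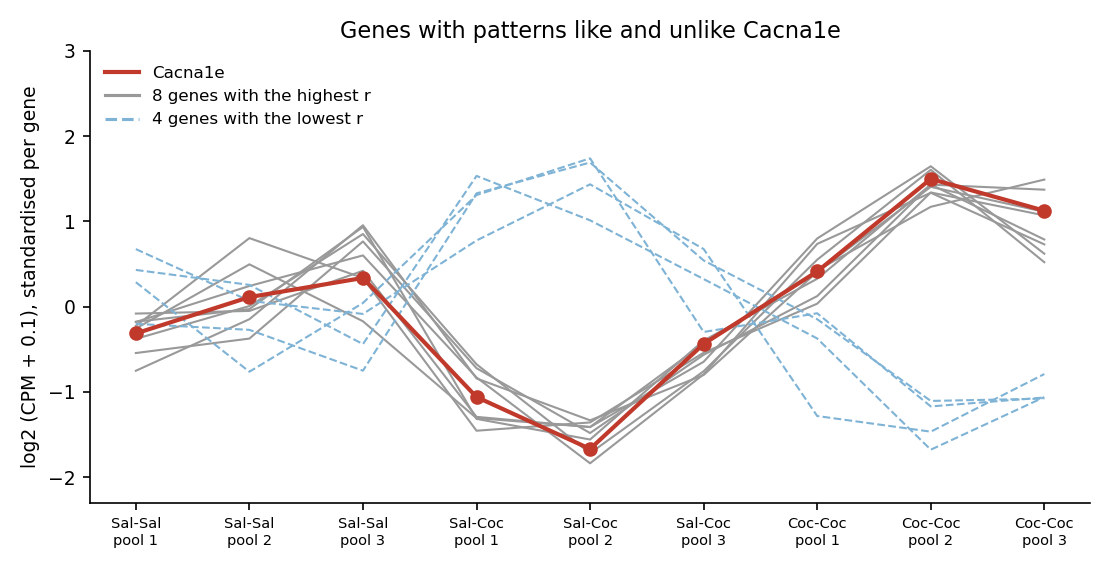
Level of Cacna1e (red), of the 8 genes with the highest r (grey) and of the 4 with the lowest r (blue, dashed) in each of the 9 pools, as log2 (CPM + 0.1) standardised per gene, where lines only join the values of a gene. Sal–Coc pool 2 is the lowest and Coc–Coc pool 2 the highest for Cacna1e.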

How the data were processed

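RNA of the nucleus accumbens was sequenced from 3 pools per group (TruSeq stranded poly(A) libraries, single reads of 75 bases), with 4 technical replicates of each pool. The tables that the authors deposited hold whole-number counts per Ensembl gene, with no normalization. Upstream, per the methods, reads of at most 40 bases or of a mean quality of at most 30 were discarded, the rest were aligned with STAR 2.4.0k (Ensembl 84), and reads mapping to several places were removed. HTSeq is named in the submitters' processing notes.

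Technical replicates were summed per pool, and groups were taken from titles, descriptions and treatment labels. All 9 pools entered 1 edgeR fit (version 4.0.16, R 4.3.3, with filterByExpr, TMM, the quasi-likelihood test and a Benjamini-Hochberg adjusted p under 0.05), and scripts were tested on simulated data. DESeq 1.8.3, the tool of the study, was not used here. As alternatives, other normalizations and filters, DESeq2 1.42.0, limma-voom (limma 3.58.1), a fit of the 6 pools of a comparison, a replicate block by pool number, technical replicate a by itself and the omission of each pool were tried. The edgeR p-values set differences between groups against the spread between these pools, not single animals, estimated with information shared across genes.

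The gene and the lists were chosen with earlier results of these data known. Named genes are Cacna1e, matched calcium channel genes with a mean of at least 1 CPM, members of the other lists past the threshold in any comparison, and the 8 most and 4 least similar genes, of which 2 identifiers each are printed. Pvalb and the genes with symbols that were most or least alike are named in addition, after their values were seen. The tables hold no symbols. A symbol was used where its published fold change equalled, to 6 digits, that of exactly 1 identifier (1506 symbols), and the published values served as keys only. Sequences come from RefSeq (GRCr8), another build than that of the counts.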

Additional observations from a re-analysis of the deposited data

How the results depend on the processing

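Cacna1e kept its direction in the 3 comparisons under every alternative that was run. With 1 pool left out at a time its LFC was between -0.49 and -0.28 (Sal–Coc vs. Sal–Sal), 0.25 and 0.44 (Coc–Coc vs. Sal–Sal) and 0.62 and 0.83 (Coc–Coc vs. Sal–Coc). With library totals alone, chosen after seeing the data, it was -0.30, 0.38 and 0.68. DEG numbers moved more. Those of Sal–Coc relative to saline went from 2572 to 1445 in a fit of the 6 pools alone. Those of Coc–Coc relative to saline went from 1702 to 2888 (DESeq2), 1057 (technical replicate a alone), 883 (library totals alone) and 1126 (replicate block). The replicate block gave 2084 and 0 in the other comparisons, but pools with 1 number were different animals whose deviations did not go together (mean r -0.03 over 9 pairs, 0.02 over the 18 other pairs). Those of Coc–Coc relative to Sal–Coc went from 0 to 5 (no filter on low counts), 155 (DESeq2) and 3 (technical replicate a alone), and 3 of the 11 partner genes were called there by DESeq2. The cause was not tested. With library totals alone, 1863 of 2255 DEGs of Sal–Coc relative to saline were upregulated (1655 of 2572 with TMM), and 701 of 883 DEGs of Coc–Coc (1115 of 1702). With 1 pool left out at a time, the 3 comparisons had 982 to 2835, 0 to 2131 and 0 to 1 DEGs (upregulated, 775 to 1706, 0 to 1332 and 0 to 1). The number for Sal–Coc was 982 without Sal–Sal pool 1, 1203 without Sal–Coc pool 2 and 1201 without Sal–Coc pool 3. That for Coc–Coc relative to saline was 0 without Coc–Coc pool 3, 174 without Coc–Coc pool 2, 837 without Coc–Coc pool 1, 292 without Sal–Sal pool 1, 984 without Sal–Sal pool 2 and 1052 without Sal–Coc pool 2. Of the 4 other channel genes 3 to 4, 0 to 4 and 0 passed, and of the 11 partner genes 5 to 8, 0 to 8 and 0. A correction for transcript length was not run, as lengths of the build of the counts were not used here. Cacna1e had 6261 or more reads in each pool, and each group had 3 pools.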

Other observations

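Among the 1449 genes with a symbol and a mean of at least 1 CPM, which the study had listed on these libraries, those most like Cacna1e over the 9 pools were chosen after their values were seen. Cers6, a ceramide synthase, had r = 0.917 and had group means of 31.3 CPM (Sal–Sal, n = 3 pools), 22.8 CPM (Sal–Coc) and 32.2 CPM (Coc–Coc). Phc3, a Polycomb group protein, had r = 0.905 and was at 51.0, 34.9 and 53.8 CPM. Ubn2 had r = 0.889 and was at 45.7, 26.95 and 51.2 CPM. All 3 were downregulated in Sal–Coc relative to saline (adjusted p = 0.0168, 0.0290 and 0.00801 from edgeR's quasi-likelihood test), and their LFCs in Coc–Coc relative to saline were 0.04, 0.08 and 0.17, where that of Cacna1e was 0.34. Zfp871 (r = 0.882) came next, with LFCs of -0.66 in Sal–Coc relative to saline and 0.07 in Coc–Coc relative to saline (edgeR adjusted p = 0.0113 and 0.732). AABR07042733.1 (r = 0.867) had a value of 0.49 in Coc–Coc relative to saline, above that of Cacna1e, and of -0.30 in Sal–Coc relative to saline (edgeR adjusted p = 0.0761 and 0.230).

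Least like Cacna1e among these genes were Adra2b, an alpha-2 adrenergic receptor (r = -0.820), Nts, which encodes the neuropeptide neurotensin (r = -0.819), and Nefm, a neurofilament subunit of axons (r = -0.806). Nts was at 46.5, 47.4 and 35.3 CPM (Sal–Sal), 53.2, 45.8 and 53.9 CPM (Sal–Coc) and 33.0, 29.4 and 31.7 CPM (Coc–Coc). It fell in Coc–Coc relative to saline (LFC -0.46, adjusted p = 0.0387 from edgeR's test), as did Nefm (-0.54, adjusted p = 0.0295). After subtraction of group means r was -0.12 for Nts, -0.21 for Nefm and -0.31 for Adra2b, and it was 0.90 for Cers6, 0.81 for Phc3 and 0.59 for Ubn2. Nts, Nefm, Adra2b, Ubn2, Zfp871 and AABR07042733.1 were listed with Cacna1e for Coc–Coc vs. Sal–Coc on these pools. For each of them, a difference between these groups was therefore fixed by the selection, whether like or unlike that of Cacna1e.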
